A study of Homo sapiens with 12 samples.

Results

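Heparan sulfate and hyaluronan are long sugar chains of the cell surface and the extracellular matrix, and 10 genes for proteins that shape them were followed here among the 60671 genes of the count table. The 10 genes were SULF1 and SULF2, HPSE and HPSE2, HAS1, HAS2 and HAS3, HYAL1 and HYAL2, and CEMIP. The list was drawn up by name with earlier results of these data known. SULF1 and HPSE2 were chosen by their values: both showed a difference between the genotypes in the response to serum in these same libraries. Their values are therefore given as a description with no test, and tests were read only for the other 8 genes. RNA was measured in BJ-5ta cells, an immortalised line of human skin fibroblasts, and in a derivative in which LEO1, a subunit of the PAF1 complex of transcription elongation, had been deleted with CRISPR/Cas9. The 4 groups were wild-type cells in 10% serum (WT_10), wild-type cells kept for 10 days in 0.1% serum to bring them into quiescence (WT_01), and ΔLEO1 cells under the same 2 conditions (Leo1_10 and Leo1_01), with 3 libraries each. The ΔLEO1 cells were a single clone, so the deletion cannot be told apart from other properties of that clone. The libraries were numbered 1 to 3 (WT_10), 4 to 6 (Leo1_10), 7 to 9 (WT_01) and 10 to 12 (Leo1_01), and all were made from poly(A) RNA to which ERCC transcripts, synthetic RNAs of known amount, had been added.

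Gene counts per library ran from 26240632 to 45315560, and ERCC transcripts made up 0.6251% to 3.243% of the counts. Values are given as ERCC-scaled counts, the count of a gene divided by the effective ERCC size of its library and multiplied by 1000000, or as CPM, counts per 1000000 gene counts of the library. On the ERCC scale the median log2 fold change of the 13236 tested genes was -0.97 from 10% to 0.1% serum in WT and -1.05 in ΔLEO1. It was 0.35 for ΔLEO1 against WT in 10% serum and 0.27 in 0.1% serum. Changes of the members are therefore also given with TMM on the genes, a scaling that puts the median close to 0, as are those of list genes that it did not call. With bulk RNA, fewer cells and less RNA per cell cannot be told apart. The sources used here do not say that the ERCC amount was set by cell number, so the RNA input of a library cannot be told apart from these. Within Leo1_01 the effective ERCC size ran from 389131 (library 12) to 1086094 (library 11). LEO1 had 20.4 to 30.5 CPM in the WT libraries and 0.661 to 1.45 CPM in the ΔLEO1 libraries. All 10 fibroblast markers exceeded 1 CPM in every library, while the 3 endothelial and the 4 melanocyte markers stayed at or below 1 CPM in all of them. The 3 leukocyte markers summed to 0.823 to 1.91 CPM in WT and to 1.82 to 7.85 CPM in ΔLEO1, and the 5 keratinocyte and epithelial markers to 53.8 to 80.0 and 24.1 to 40.3 CPM. Of these 5, 3 stayed at or below 1 CPM in every library and only KRT8 entered the tests. Among the leukocyte markers PTPRC was called higher in ΔLEO1 at both serum levels, and CD68 lower in 0.1% serum with TMM on the genes. The part of these markers in the results was not tested. Within each group the highest-numbered library (3, 6, 9 or 12) stood apart: the chi-square per gene was 59.6 to 129 in pairs that held it and 2.87 to 11.1 in the other pair of each group.

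Heparan sulfate is attached to core proteins and binds growth factors, Wnt proteins and chemokines through its sulfate groups. SULF1 and SULF2 are secreted endosulfatases that remove sulfate from finished chains, HPSE is the heparanase that cuts the chains, and HPSE2 is a related protein that binds heparan sulfate and lacks that cutting activity. Hyaluronan is made at the plasma membrane by the synthases HAS1, HAS2 and HAS3, HAS2 being the main synthase of many fibroblasts. It is broken down by hyaluronidases such as the membrane-anchored HYAL2 and the lysosomal HYAL1, and by CEMIP, a hyaluronan-binding protein that skin fibroblasts need for its depolymerisation.

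**Figure D1:**
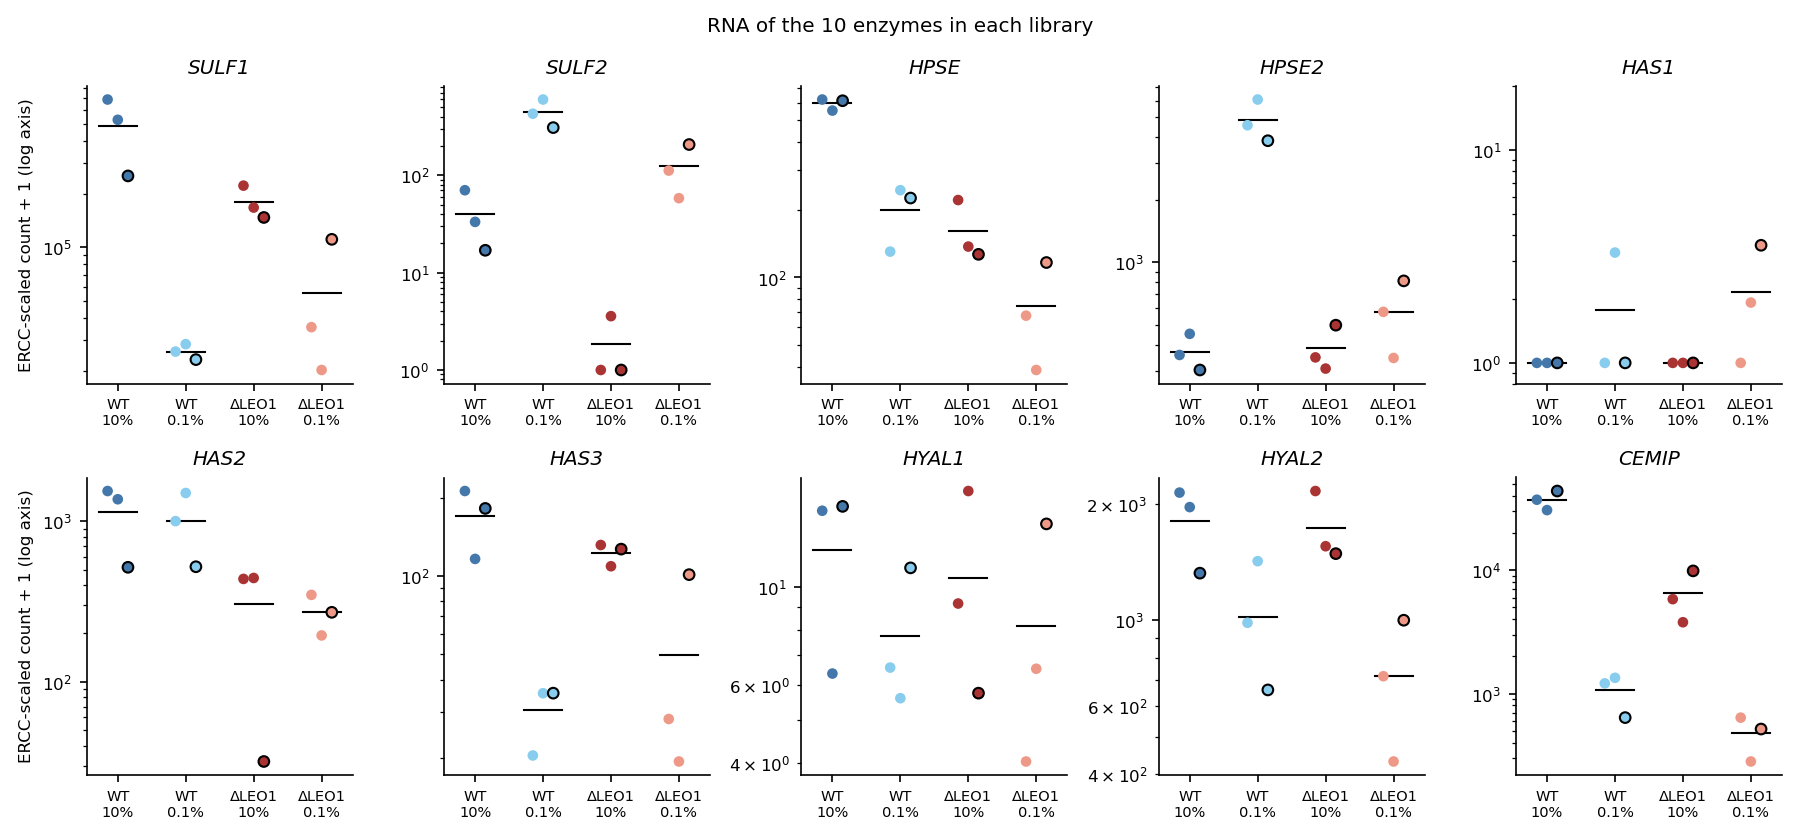
ERCC-scaled count plus 1 on a log axis for each of the 10 genes, with 1 point per library in each group, a bar at the mean of 3 libraries and a black outline on the highest-numbered library. SULF1 and CEMIP were lower in every 0.1% serum library than in any 10% serum library of the same genotype, HPSE2 was high in the WT_01 libraries alone, and HAS1 had 0 or 1 count.

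The members differed widely in level. Per kilobase of annotated exon, SULF1 was the highest in every group, with an ERCC-scaled mean of 51940 ± 23240 in WT_10, 19090 ± 4176 in Leo1_10, 2735 ± 275 in WT_01 and 5901 ± 5169 in Leo1_01 (SD, n = 3). It took 0.365% to 0.544% of all gene counts in the WT_10 libraries, where it ranked 37 to 61 per kilobase among 58453 genes with a length. CEMIP came next in WT_10 at 4899 ± 864.5 per kilobase and in Leo1_10 at 852.6 ± 407.1 (SD, n = 3). In WT_01 the second place was held by HPSE2 at 1096 ± 258 per kilobase (SD, n = 3), and HAS2, HYAL2, CEMIP at 139.3 ± 49.1 and SULF2 followed with ranges that overlapped from each one to the next. HYAL2 and HAS2, HAS2 and HPSE, and SULF2 and HYAL1 were neighbours in WT_10 whose library ranges overlapped, so their order was not resolved. In Leo1_01 the ranges of HYAL2, HPSE2, HAS2 and CEMIP overlapped from each one to the next, between means of 157.5 and 62.5 per kilobase. HAS1 was lowest in every group, and its range overlapped that of SULF2 in Leo1_10, where SULF2 had a mean of 0.129 per kilobase, and that of HYAL1 in Leo1_01, so its last place was not resolved there. Taking the longest annotated transcript as the length exchanged 2 neighbouring genes in WT_01 and 2 in Leo1_01.

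**Figure D2:**
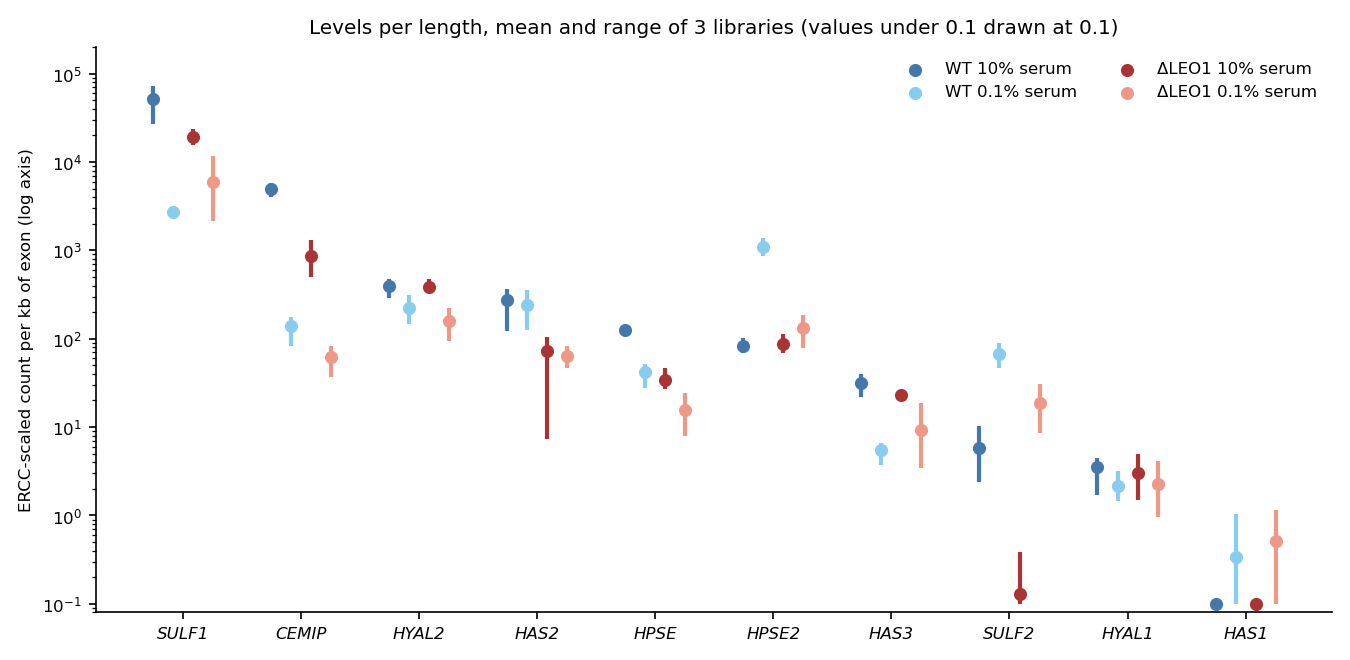
ERCC-scaled count per kilobase of exon on a log axis for the 10 genes, ordered by their WT_10 mean. Points are means and lines the range of 3 libraries, in WT and ΔLEO1 at 10% and 0.1% serum. SULF1 had the highest mean in every group, and HPSE2 came second in WT_01.

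The balance within pairs of related genes was compared next, as shares of the pair's summed counts per kilobase of exon. HPSE2 made up 34.5% to 46.6% of the HPSE and HPSE2 sum in WT_10 and 94.8% to 97.4% in WT_01. The share was 62.7% to 80.8% in Leo1_10 and 88.2% to 90.7% in Leo1_01, so it was higher in 0.1% serum in both genotypes without overlap. SULF1 accounted for 97.1% to 98.2% of the SULF1 and SULF2 sum in WT_01 and for 99.6% or more in the other groups. CEMIP made up 90.3% to 95.2% of the CEMIP and HYAL2 sum in WT_10 and 36.0% to 42.2% in WT_01. It made up 59.2% to 79.9% in Leo1_10 and 23.5% to 34.6% in Leo1_01. Before division by length, the WT_01 libraries held 868, 583 and 572 counts of CEMIP and 708, 618 and 593 of HYAL2. HAS2 gave 78.3% to 93.8% of the HAS2 and HAS3 sum in WT_10 and up to 98.5% in WT_01. In Leo1_10 the HAS2 share ran from 23.6% to 83.8%, with library 6 lowest, and in Leo1_01 from 77.3% to 94.1%, so these groups overlapped.

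The promoters of 3 members are printed here, since HPSE2 and SULF2 RNA was higher and CEMIP RNA was lower in 0.1% serum in WT cells. Each is the 250 bases before the RefSeq transcription start in GRCh38.p14, written 5′ to 3′ on the strand of the gene. Capitals mark matches, on either strand, to 4 short motifs. These were the AP-1 motif TGANTCA, held by 6.57% of the same windows of 35116 promoters, the FOXO motif GTAAACA (2.98%), the GC box GGGCGG (42.6%) and the TATA box TATAAA (10.7%). The HPSE2 window is chr10:99235853-99236102, minus strand, the SULF2 window is chr20:47786628-47786877, minus strand, and the CEMIP window is chr15:80779120-80779369, plus strand. A match describes the letters and does not show a bound site.
HPSE2: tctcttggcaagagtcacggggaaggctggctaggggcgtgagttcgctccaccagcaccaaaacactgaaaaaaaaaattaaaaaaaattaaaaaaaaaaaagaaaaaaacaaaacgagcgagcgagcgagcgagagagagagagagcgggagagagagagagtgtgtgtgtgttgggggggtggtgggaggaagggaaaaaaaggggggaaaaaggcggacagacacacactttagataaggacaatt
SULF2: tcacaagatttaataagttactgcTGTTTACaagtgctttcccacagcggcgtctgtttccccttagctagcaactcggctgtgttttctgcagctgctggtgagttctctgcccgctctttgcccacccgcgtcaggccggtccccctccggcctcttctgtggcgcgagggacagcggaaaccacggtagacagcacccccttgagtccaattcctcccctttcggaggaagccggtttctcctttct
CEMIP: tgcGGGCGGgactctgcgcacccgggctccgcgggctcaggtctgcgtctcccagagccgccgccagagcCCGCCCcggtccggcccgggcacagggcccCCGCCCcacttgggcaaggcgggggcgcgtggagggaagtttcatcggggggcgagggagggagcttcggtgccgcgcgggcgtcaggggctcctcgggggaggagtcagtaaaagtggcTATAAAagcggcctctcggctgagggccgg

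These windows differ in composition. The HPSE2 window has a GC content of 46.8% with 10 CpG dinucleotides and carries runs of adenine and GA repeats, the SULF2 window has 56.8% with 14 CpG, and the CEMIP window has 74.4% with 28 CpG, beside a median of 58.0% over all promoters. HPSE2 held a match to none of the 4 motifs in this window. SULF2 held a FOXO match that starts 226 bases before the transcription start, on the opposite strand. CEMIP held 3 GC boxes and a TATA box that starts 30 bases before the transcription start. Promoters were found in the table for 8 of the 10 members, and the AP-1 motif was in none of these 8 windows.

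Both genotypes were first compared between 0.1% and 10% serum. In WT cells CEMIP, HAS3 and HPSE RNA fell and SULF2 RNA rose, while HAS2 and HYAL2 did not pass the test. In ΔLEO1 cells CEMIP, HAS3 and HYAL2 fell and SULF2 rose, while HPSE and HAS2 did not pass. CEMIP fell 35.2-fold in WT and 13.6-fold in ΔLEO1 between the means of 3 libraries, and SULF2 rose 11.4-fold in WT. Of the 6 other members tested, 3 were therefore called lower and 1 higher in each genotype. Over all tested genes 36.1% were called lower and 0.944% higher in WT, and 47.2% lower and 0.975% higher in ΔLEO1, so the shares called lower among the members were near those of all genes. The median log2 fold change of the 6 members was -1.20 in WT and -1.21 in ΔLEO1, beside -0.97 and -1.05 over all genes.

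With TMM on the genes 2 members were called lower (CEMIP and HAS3) and 1 higher (SULF2) in WT, where 16.6% and 16.0% of all genes were called lower and higher. In ΔLEO1 1 was called lower (CEMIP) and 1 higher (SULF2), beside 12.9% and 16.5% of all genes. The directions of CEMIP and SULF2 thus held on both scales, and HAS3 fell on both in WT. The calls for HPSE in WT and for HAS3 and HYAL2 in ΔLEO1 were made on the ERCC scale alone. SULF2 passed the filter only through the 0.1% serum libraries, and HAS3 mainly through the WT_10 libraries, so genes with such a pattern had to differ and the counts of called members are no support for a common response.

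The ΔLEO1 clone was then compared with WT within each serum level. In 10% serum CEMIP, HAS2, HPSE and SULF2 RNA was lower in ΔLEO1, and HAS3 and HYAL2 did not pass the test. In 0.1% serum HAS2 and SULF2 were lower in ΔLEO1, and HPSE, HAS3, HYAL2 and CEMIP did not pass. Of the 6 tested, 0 were called higher in ΔLEO1 at either serum level by edgeR's likelihood ratio test, its quasi-likelihood test, DESeq2 or edgeR with TMM on the genes, and 0 were higher at an unadjusted p under 0.05 in the likelihood ratio test. On the ERCC scale 4 of 6 were called lower in 10% serum, where 4.64% of all tested genes were called lower and 4.2% higher. In 0.1% serum 2 of 6 were called lower, where 3.59% of all genes were lower and 3.85% higher. By TMM on the genes 5 of 6 (CEMIP, HAS2, HPSE, HYAL2 and SULF2) were called lower at each serum level. There 21.8% of all genes were lower and 17.7% higher in 10% serum, and 17.6% were lower and 15.4% higher in 0.1% serum. The 2 genotype comparisons share no library, but each shares its libraries with the serum comparisons. The members were listed with earlier results of these data known, so the counts called lower are no test of a list fixed in advance.

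**Figure D3:**
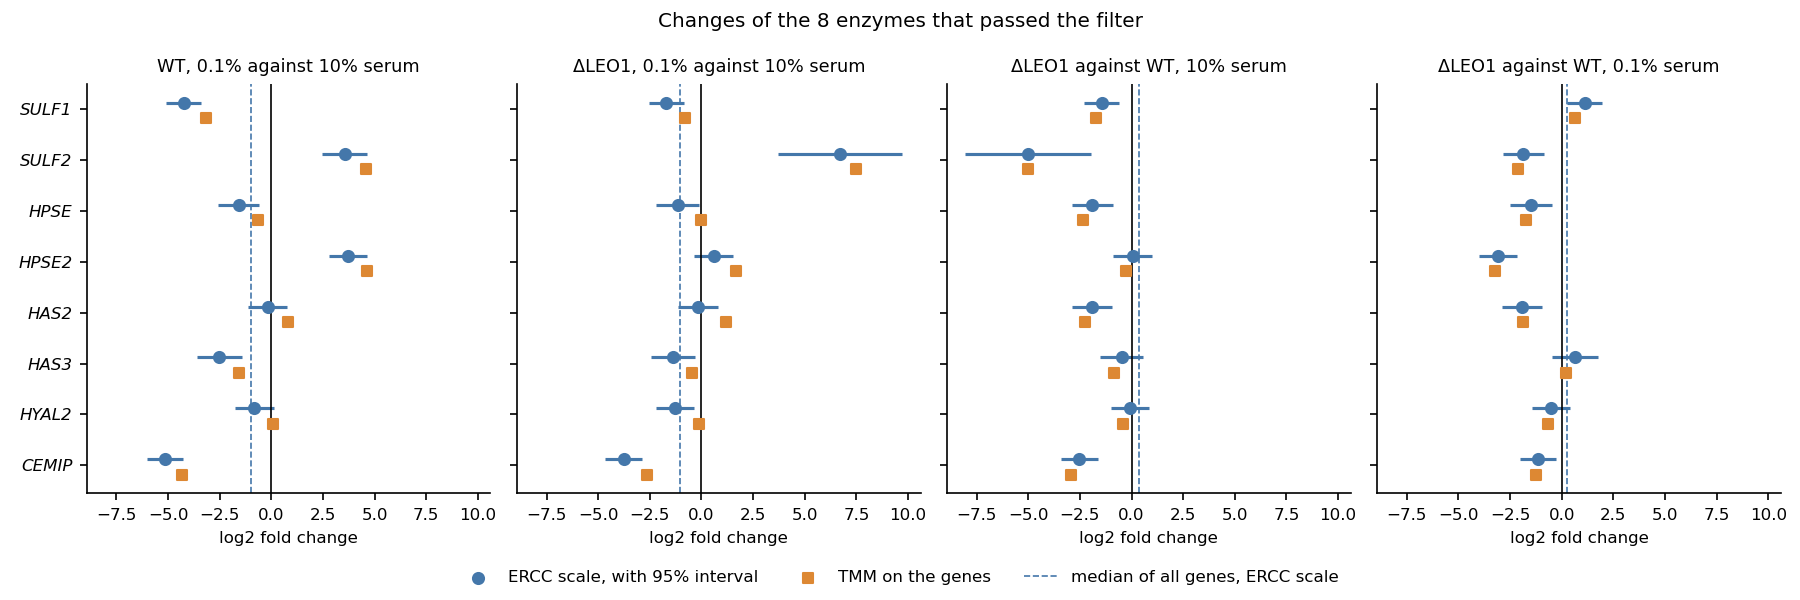
Log2 fold changes of the 8 genes that passed the filter in the 4 comparisons. Circles are the ERCC-scaled fit with 95% intervals from the SE, squares are the fit with TMM on the genes and the dashed line is the median of all 13236 tested genes on the ERCC scale. SULF1 and HPSE2 were chosen by a contrast of these same groups, so their intervals are a description and no test. CEMIP, HPSE, HAS2 and SULF2 lie left of 0 in both comparisons of ΔLEO1 with WT on both scales.

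SULF1 (ENSG00000137573, chromosome 8, 69466624 to 69660915, plus strand) had 685600, 526400 and 253400 ERCC-scaled counts in the WT_10 libraries 1, 2 and 3, and 25700, 28320 and 23150 in the WT_01 libraries 7, 8 and 9. All WT_10 libraries were above all WT_01 libraries, and the lowest of them, library 3, was still higher than any WT_01 value. The Leo1_10 libraries 4, 5 and 6 had 223300, 167800 and 147500, and the Leo1_01 libraries 10, 11 and 12 had 35330, 20220 and 110900. Library 12 was the highest of the Leo1_01 libraries, and the groups did not overlap. The mean was 19.0-fold lower in 0.1% serum in WT and 3.24-fold lower in ΔLEO1, or 8.6-fold and 1.65-fold lower in CPM. As log2 fold changes these were -4.25 (SE 0.44) and -1.69 (SE 0.44), and -3.19 and -0.80 with TMM on the genes. In 10% serum ΔLEO1 was 2.72-fold lower than WT (log2 -1.44, and -1.74 with TMM on the genes), with no overlap. In 0.1% serum the 2 genotypes overlapped on the ERCC scale. In CPM they did not, with 469.5 to 621.0 in WT_01 and 670.7 to 1223 in Leo1_01. The log2 difference of ΔLEO1 minus WT was 1.11 (SE 0.44) with all libraries and 0.65 with TMM on the genes. On the ERCC scale it was 0.04 without the highest-numbered library of each group.

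SULF2 (ENSG00000196562, chromosome 20, 47656348 to 47786616, minus strand) was a low-level gene whose raw counts are given first. The WT_10 libraries held 20, 12 and 9 counts and the WT_01 libraries 307, 260 and 276. The Leo1_10 libraries held 0, 1 and 0 counts and the Leo1_01 libraries 73, 62 and 80. In both genotypes every 0.1% serum library was above every 10% serum library, and at each serum level every ΔLEO1 library was below every WT library. A count of 0 allows up to 3 counts, which is 0.0773 CPM in library 4 and 0.0675 CPM in library 6. As ERCC-scaled counts the WT libraries had 69.1, 32.2 and 16.0 in 10% serum and 427.0, 597.7 and 307.2 in 0.1% serum, which gave 3.55 on the log2 scale (SE 0.55, adjusted p = 1.4e-07, edgeR likelihood ratio test) and 4.57 with TMM on the genes. SULF2 entered the tests only because its 0.1% serum libraries exceeded 1 CPM, so its p-values against serum come after a choice by the higher group. Without any filter the adjusted p was 3.91e-07 in WT and 3.04e-10 in ΔLEO1. The ΔLEO1 libraries 10, 11 and 12 had 110.6, 57.1 and 205.6.

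In ΔLEO1 the pooled counts of SULF2, 215 in 0.1% serum and 1 in 10% serum, gave a ratio of 106 on the ERCC scale, with an exact 95% interval of 18.9 to 4220 that covers counting error only (adjusted p = 1.04e-10, edgeR). In 10% serum the pooled counts were 41 in WT and 1 in ΔLEO1, a ratio of 35.3 with an interval of 5.99 to 1430 (adjusted p = 1.54e-05). In 0.1% serum ΔLEO1 was 3.57-fold lower than WT (log2 -1.85, SE 0.52, adjusted p = 0.00904, edgeR). This last call was lost without library 8 (adjusted p = 0.108) or library 10 (0.0793). With TMM on the genes ΔLEO1 minus WT was -5.03 in 10% serum and -2.10 in 0.1% serum, and both were called. SULF2 shares 96 exon bases with NCOA3 on the other strand, and the strand setting of the counting was not given. NCOA3 had 3431 to 5745 counts in every library, including those where SULF2 had 0 or 1.

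HPSE (ENSG00000173083, chromosome 4, 83292461 to 83335153, minus strand) had 618.8, 552.4 and 611.2 ERCC-scaled counts in the WT_10 libraries and 129.4, 243.7 and 224.8 in the WT_01 libraries. The Leo1_10 libraries had 220.2, 136.3 and 125.8 and the Leo1_01 libraries 66.6, 37.8 and 115.6. The WT_10 libraries were the highest of all, and the Leo1_01 libraries were the lowest. In WT the mean was 2.98-fold lower in 0.1% serum (log2 -1.58, SE 0.51, adjusted p = 0.015, edgeR), and TMM on the genes gave -0.65, which did not pass (adjusted p = 0.0884). The call in WT was lost without library 1 (adjusted p = 0.0619), 7 (0.121) or 9 (0.0581). ΔLEO1 cells gave -1.15 on the log2 scale (SE 0.53, adjusted p = 0.0588), and the call was made by DESeq2 (adjusted p = 0.0332) and without library 3 (0.0484), library 12 (0.00171) or all highest-numbered libraries (3.86e-05). With TMM on the genes it was -0.04 (adjusted p = 0.945).

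In 10% serum HPSE was 3.70-fold lower in ΔLEO1 than in WT (log2 -1.89, SE 0.52, adjusted p = 0.00589, edgeR), a call lost without library 5 (adjusted p = 0.0865) or 6 (0.0764) and made with TMM on the genes (-2.35). In 0.1% serum the log2 difference was -1.47 (SE 0.52, adjusted p = 0.0719). There the groups did not overlap, and the adjusted p was 1.52e-06 with TMM on the genes (-1.74), 0.0221 with DESeq2 and 0.00158 without library 12. In CPM the ΔLEO1 libraries were close together, from 1.17 to 1.39 in 10% serum and from 1.26 to 1.27 in 0.1% serum, while the WT libraries ran from 4.91 to 8.80 and from 2.76 to 6.03.

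HPSE2 (ENSG00000172987, chromosome 10, 98457077 to 99235862, minus strand), whose promoter is printed above, spans 778786 bases. It had 356.1, 450.5 and 301.2 ERCC-scaled counts in the WT_10 libraries and 4580, 6094 and 3856 in the WT_01 libraries. The Leo1_10 libraries had 346.6, 306.0 and 496.1, and the Leo1_01 libraries 575.5, 344.4 and 812.1. The WT_01 libraries stood above all others, while the other 3 groups overlapped. The mean was 13.1-fold higher in 0.1% serum in WT (log2 3.71, SE 0.47, and 4.63 with TMM on the genes) and 1.51-fold higher in ΔLEO1 (log2 0.59, SE 0.48, and 1.66). In CPM the ratios were 26.4 and 3.3, and the Leo1_01 libraries, at 8.95 to 11.5 CPM, did not overlap the Leo1_10 libraries, at 2.19 to 4.70 CPM. In 0.1% serum the ΔLEO1 mean was 8.39-fold lower than the WT mean (log2 -3.07, SE 0.47, and -3.25 with TMM on the genes). In 10% serum the genotypes overlapped, with a log2 difference of 0.06 (SE 0.48) on the ERCC scale and -0.27 with TMM on the genes.

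The synthase HAS2 (ENSG00000170961, chromosome 8, 121612116 to 121641390, minus strand) was lower in ΔLEO1 at both serum levels. The WT_10 libraries had 1542, 1370 and 515.6 ERCC-scaled counts and the Leo1_10 libraries 436.3, 442.3 and 30.9. The WT_01 libraries had 1001, 1499 and 519.8 and the Leo1_01 libraries 346.8, 193.4 and 269.8. No ΔLEO1 library reached a WT library at the same serum level, and library 6, with 13 counts, was the lowest of the 12. The difference was 3.77-fold in 10% serum (log2 -1.92, SE 0.50, adjusted p = 0.00323, edgeR) and 3.73-fold in 0.1% serum (log2 -1.90, SE 0.49, adjusted p = 0.00386), and TMM on the genes gave -2.27 and -1.88. DESeq2 with ERCC size factors called neither, with adjusted p of 0.152 and 0.192. The call in 10% serum was lost without library 1 (adjusted p = 0.0507) or library 6 (0.181), and that in 0.1% serum without library 8 (0.112).

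HAS2 gave no call against serum. It changed by -0.18 on the log2 scale (SE 0.49, adjusted p = 0.736) in WT and -0.16 (SE 0.50, adjusted p = 0.769) in ΔLEO1, and 0.79 and 1.19 with TMM on the genes (adjusted p = 0.332 and 0.141, edgeR). The direction thus depended on the scale. In CPM the WT_01 libraries, at 13.9 to 24.9, were above the WT_10 libraries, at 7.42 to 13.0. HAS2 shares 201 exon bases with the antisense gene HAS2-AS1, which had 5 to 68 counts per library. The paper names a stranded library protocol, but if the counting did not use strand, reads from the 2 cannot be told apart.

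HAS3 (ENSG00000103044, chromosome 16, 69105564 to 69118719, plus strand) had 210.9, 115.3 and 180.7 ERCC-scaled counts in WT_10 and 19.5, 34.5 and 34.5 in WT_01. It had 130.5, 108.0 and 125.8 in Leo1_10 and 27.3, 18.4 and 100.2 in Leo1_01. The 10% serum libraries were above the 0.1% serum libraries in both genotypes, with library 12 close to the lowest 10% serum value. HAS3 was 5.73-fold lower in 0.1% serum in WT (log2 -2.51, SE 0.55, adjusted p = 0.000272, edgeR), a call kept with each library left out and with TMM on the genes (-1.57, adjusted p = 0.000863). HAS3 entered the tests mainly through its WT_10 libraries, so this p-value comes after a choice by the higher group. In ΔLEO1 it was 2.50-fold lower (log2 -1.38, SE 0.55, adjusted p = 0.0356), and 6 of the 12 fits with 1 library left out made no call, with adjusted p up to 0.178, nor did TMM on the genes (-0.47, adjusted p = 0.408). Without any filter the adjusted p of HAS3 was 0.000743 in WT and 0.074 in ΔLEO1 (edgeR likelihood ratio test), so the ΔLEO1 call was lost. ΔLEO1 minus WT was -0.48 (SE 0.54) in 10% serum and 0.66 (SE 0.57) in 0.1% serum on the log2 scale, with adjusted p of 0.656 and 0.75, and -0.87 and 0.23 with TMM on the genes. The value in 0.1% serum was -0.22 without the highest-numbered libraries. HAS3 had 14 to 102 counts per library and shares 365 exon bases, 6.9% of its own, with CHTF8 on the other strand, which had 90 to 218.

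HAS1 (ENSG00000105509, chromosome 19) had 1 count in libraries 8, 11 and 12 and 0 counts in the other 9, which allows up to 0.0662 to 0.0896 CPM in them. HYAL1 (ENSG00000114378, chromosome 3) had 2 to 9 counts in each library, 52 in all. Neither passed the filter, and differences between the groups were not detectable at this depth.

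HYAL2 (ENSG00000068001, chromosome 3, 50317790 to 50322906, minus strand) had 389 to 747 counts per library. As ERCC-scaled counts these were 2137, 1960 and 1323 ERCC-scaled counts in WT_10, 984.7, 1421 and 660.1 in WT_01, 2157, 1553 and 1486 in Leo1_10, and 716.3, 430.9 and 999.7 in Leo1_01. The serum groups overlapped in WT and did not in ΔLEO1. Between 10% and 0.1% serum it changed by -0.82 on the log2 scale (SE 0.47, adjusted p = 0.13) in WT and -1.28 (SE 0.47, adjusted p = 0.0277, edgeR) in ΔLEO1, and 0.10 and -0.13 with TMM on the genes. The call in ΔLEO1 was lost without library 4, 5, 10 or 11, with adjusted p up to 0.138. The change in WT passed without library 12 (0.0419), without all highest-numbered libraries (0.0439) and with the 6 libraries compared alone (0.0468). ΔLEO1 minus WT was -0.06 (adjusted p = 0.95) in 10% serum and -0.52 (adjusted p = 0.76) in 0.1% serum. With TMM on the genes these were -0.42 (adjusted p = 0.0216) and -0.65 (adjusted p = 0.000278), and in CPM the genotypes did not overlap at either serum level. Without the highest-numbered libraries the ERCC-scale difference was -0.14 (adjusted p = 0.829) in 10% serum and -1.07 (adjusted p = 0.0201) in 0.1% serum. HYAL2 shares 509 exon bases, 11.2% of its own, with TUSC2 on the same strand, so the counts of the 2 are uncertain. It lies among 117 tested genes between positions 45917899 and 53192717 of chromosome 3, whose median ΔLEO1 minus WT was -0.03 in 10% serum and 0.01 in 0.1% serum, beside 0.35 and 0.27 over all tested genes.

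CEMIP (ENSG00000103888, chromosome 15, 80779343 to 80951776, plus strand) showed the lowest log2 fold changes against serum among the members. The WT_10 libraries had 37340, 30750 and 43920 ERCC-scaled counts and the WT_01 libraries 1207, 1340 and 636.7. The Leo1_10 libraries had 5827, 3785 and 9881 and the Leo1_01 libraries 636.1, 279.9 and 514.0. The 4 groups formed a descending order from WT_10 through Leo1_10 and WT_01 to Leo1_01 without overlap between neighbours, although library 9 and library 10 nearly met. Between 10% and 0.1% serum it changed by -5.14 on the log2 scale (SE 0.45, adjusted p = 1.13e-18, edgeR) in WT and -3.77 (SE 0.45, adjusted p = 2.29e-11) in ΔLEO1, and -4.32 and -2.64 with TMM on the genes. In 10% serum ΔLEO1 was 5.75-fold lower than WT (log2 -2.52, SE 0.45, adjusted p = 3.41e-06, and -2.91 with TMM on the genes). These 3 calls were kept with each library left out. In 0.1% serum ΔLEO1 minus WT was -1.16 (SE 0.45, adjusted p = 0.122), and -1.23 with TMM on the genes (adjusted p = 0.0217). Without library 12 it passed (adjusted p = 0.0401), as it did without all highest-numbered libraries (0.000818). CEMIP shares 224 exon bases, 2.94% of its own, with MESD on the other strand, which had 1643 to 2342 counts in every library.

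The genotype by serum interaction, the log2 response to 0.1% serum in ΔLEO1 minus that in WT, was 2.55 (SE 0.62) for SULF1 and -3.13 (SE 0.67) for HPSE2. These 2 genes were selected on this contrast, in which 0.219% of all tested genes were called, so the values describe the selection. With TMM on the genes they were 2.39 and -2.98. With 1 library left out in turn they ran from 1.56 to 2.95 and from -3.46 to -2.86, and without the highest-numbered library of each group they were 1.67 and -3.23. The SULF1 value was thus reduced without library 12, where SULF1 was highest among the Leo1_01 libraries, and that of HPSE2 was not. Among the other members the interaction was 3.16 (SE 1.63) for SULF2, where it rests on 1 count in Leo1_10, and 1.37 (SE 0.63) for CEMIP. It was 1.13 (SE 0.78) for HAS3, 0.43 (SE 0.73) for HPSE, 0.02 (SE 0.70) for HAS2 and -0.45 (SE 0.67) for HYAL2.

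**Figure D4:**
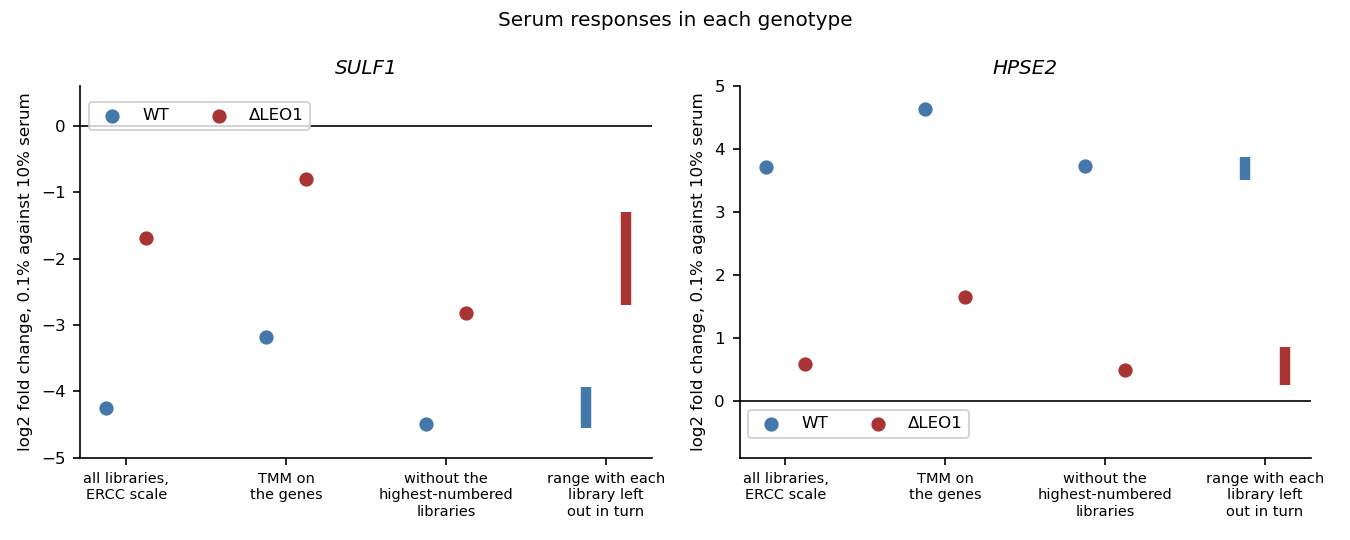
Log2 fold change from 10% to 0.1% serum of SULF1 and HPSE2, the 2 genes chosen by the difference between genotypes, in WT and ΔLEO1 under 3 settings, with the range over 12 fits that each left out 1 library. The SULF1 responses were -4.25 and -1.69 with all libraries and -4.49 and -2.82 without the highest-numbered ones, and the HPSE2 responses were 3.71 and 0.59, and 3.72 and 0.49.

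The genes whose pattern over the 12 libraries was nearest to SULF1, by the root mean square difference of centred log2 ERCC-scaled counts, were MYBL1 (0.417), COBLL1 (0.448) and TMEM178B (0.487), beside a standard deviation of SULF1 itself of 1.83. COBLL1 had group means of 21000 in WT_10, 2627 in WT_01, 13200 in Leo1_10 and 4436 in Leo1_01. Nearest to HPSE2 were MYO3B (0.603), MAF (0.691) and DPT (0.745), beside its own standard deviation of 1.64. DPT, which encodes the matrix protein dermatopontin, had means of 197.5 in WT_10, 2428 in WT_01, 233.5 in Leo1_10 and 826.8 in Leo1_01. MYO3B had means of 0.591 in WT_10, 89.2 in WT_01, 0 in Leo1_10 and 8.41 in Leo1_01, and MAF had 1.15, 103.1, 0 and 0.812. A prior count of 2 was added before the logs were taken. The distances of MYO3B and MAF therefore depend on that prior in the groups where they were near 0.

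Other genes of heparan sulfate and hyaluronan metabolism were followed in 7 lists with 85 genes, of which 59 were tested. In WT 25 of these fell and 2 rose in 0.1% serum, and in ΔLEO1 33 fell and 1 rose. The shares were 42.4% lower and 3.39% higher in WT, where 36.1% and 0.944% of all tested genes were called, and 55.9% and 1.69% in ΔLEO1, where 47.2% and 0.975% were. Their median log2 fold change was -0.98 in WT and -1.13 in ΔLEO1, close to the -0.97 and -1.05 of all tested genes. With TMM on the genes 16 fell and 10 rose in WT (27.1% and 16.9%, beside 16.6% and 16.0% of all genes), and 16 fell and 16 rose in ΔLEO1 (27.1% each, beside 12.9% and 16.5%), with medians of -0.04 and -0.03. The counts of the single lists, given next, stand beside these same shares of all genes.

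Of the 12 genes of heparan sulfate chain synthesis, all tested, 5 fell in WT and 9 in ΔLEO1. EXTL1, an exostosin-like glycosyltransferase, changed by -4.06 on the log2 scale in WT (adjusted p = 7.16e-10) and by -3.41 in ΔLEO1 (adjusted p = 1.16e-06). XYLT2, a xylosyltransferase that starts the chains, changed by -1.69 and -1.71. Among the 20 modification genes of the Golgi, 11 were tested, and 5 fell in WT and 6 in ΔLEO1. PAPSS2, which makes the sulfate donor, changed by -2.67 in WT (adjusted p = 8.4e-07) and by -2.36 in ΔLEO1. HS3ST3B1, a sulfotransferase, fell by 1.59 in WT, and SLC35B2, which carries the sulfate donor into the Golgi, fell by 1.54 in ΔLEO1. Of 13 core proteins 8 were tested, and 7 fell in WT and 5 in ΔLEO1. The glypican GPC1 changed by -2.55 in WT, perlecan (HSPG2) by -2.44 in WT and -2.19 in ΔLEO1, and agrin (AGRN) by -1.84 in ΔLEO1. Of the calls named here, the one that TMM on the genes did not make was that of HS3ST3B1 in WT (-0.54, adjusted p = 0.153).

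The 12 genes of lysosomal breakdown were all tested, and 1 fell in WT and 3 in ΔLEO1. IDS, a lysosomal sulfatase, had a log2 fold change of -1.07 in WT that did not pass (adjusted p = 0.0582, edgeR). On the TMM scale 5 of these 12 rose in WT and 6 in ΔLEO1. Of 4 other hyaluronidases and depolymerases 2 were tested. HYAL3 fell by 1.35 in WT (adjusted p = 0.0332), a call not made with TMM on the genes (-0.40, adjusted p = 0.111), and was at -1.13 in ΔLEO1 (adjusted p = 0.0526), and CEMIP2, a membrane relative of CEMIP, was at -0.22 and -0.25 with no call.

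All 7 genes of hyaluronan precursor supply were tested, and 3 fell in WT and 6 in ΔLEO1. PGM3 and GFPT1, enzymes of the hexosamine pathway, changed by -1.26 and -1.26 in WT and by -1.56 and -1.39 in ΔLEO1. TMM on the genes did not call PGM3 in WT (-0.34, adjusted p = 0.0636). Of 17 receptors and binding proteins 7 were tested, and 3 fell and 2 rose in WT, while 4 fell and 1 rose in ΔLEO1. VCAN, the hyaluronan-binding proteoglycan versican, rose by a log2 fold change of 3.46 in WT (adjusted p = 6.01e-10), from 972.5 ± 776.2 to 10690 ± 2581 ERCC-scaled counts (SD, n = 3), and by 2.92 in ΔLEO1 (adjusted p = 2.74e-07). ITIH3, a heavy chain that becomes linked to hyaluronan, changed by -5.98 in WT (adjusted p = 9.88e-14) and by -2.76 in ΔLEO1 (adjusted p = 0.00011). In WT_01 it had 1 to 4 counts per library.

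**Figure D5:**
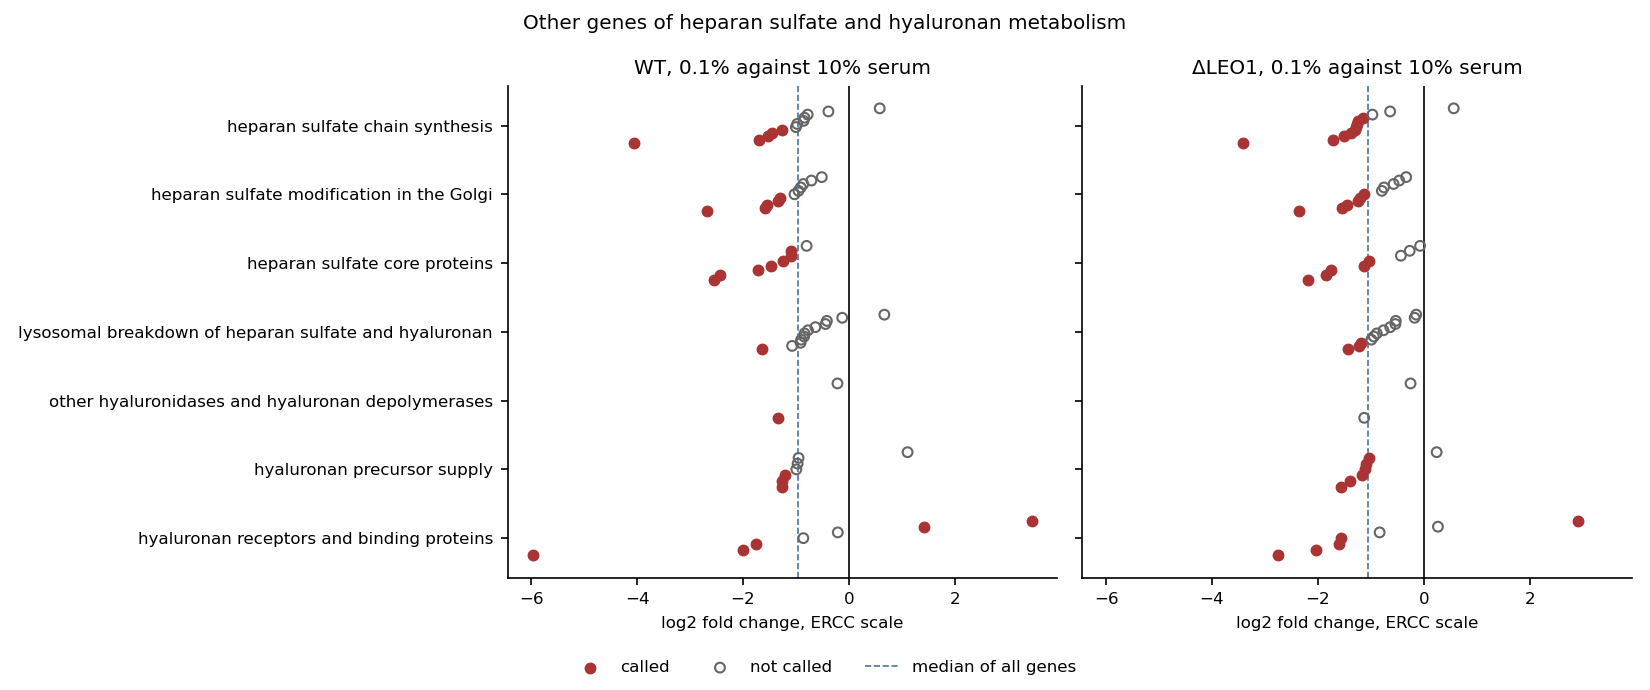
Log2 fold changes from 10% to 0.1% serum on the ERCC scale for the 59 tested genes of 7 lists, in WT (left) and ΔLEO1 (right). Filled points are genes called at an adjusted p under 0.05, open points were not called and the dashed line is the median of all tested genes. Most points lie near that median, and VCAN is the point above 2.9 in both panels.

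Between the genotypes 4 of these 59 genes were called lower and 3 higher in ΔLEO1 in 10% serum on the ERCC scale (6.78% and 5.08%, beside 4.64% and 4.2% of all genes). In 0.1% serum 3 were lower and 2 higher (5.08% and 3.39%, beside 3.59% and 3.85%). These genes were named after their values were seen. GFPT2, an enzyme of the hexosamine pathway that supplies hyaluronan synthesis, was lower in ΔLEO1 by a log2 difference of -3.88 in 10% serum (adjusted p = 1.48e-07, edgeR) and of -4.74 in 0.1% serum (adjusted p = 4.77e-12). Its mean was 177.5 ± 45.1 and 385.4 ± 264.1 ERCC-scaled counts in WT_10 and WT_01, and 12.7 ± 7.82 and 14.8 ± 5.31 in Leo1_10 and Leo1_01 (SD, n = 3). PXYLP1, a phosphatase that acts on the linkage of the chains to their core protein, differed by -1.93 and -1.95. SDC1, syndecan 1, differed by -2.71 in 10% serum and EXTL1 by -1.58, and XYLT1 differed by -1.73 in 0.1% serum. AGRN was higher by 1.46 and 1.34, CD44, the main hyaluronan receptor, by 1.58 in 10% serum, TNFAIP6 by 1.68 in 10% serum and ITIH3 by 3.26 in 0.1% serum. On the TMM scale 21 of the 59 were lower and 9 higher in 10% serum (35.6% and 15.3%, beside 21.8% and 17.7% of all genes), and 16 lower and 6 higher in 0.1% serum (27.1% and 10.2%, beside 17.6% and 15.4%).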

How the data were processed

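The authors sequenced poly(A) RNA to which ERCC transcripts had been added, aligned the reads with STAR and counted them in exons with featureCounts 1.5.1. The submitters' notes name bcl2fastq 2.20.0.422, STAR 2.7.10a and the GRCh38 genome. The deposited tables hold raw counts per gene and per ERCC transcript. The paper names a stranded library protocol. The strand setting of the counting and the treatment of reads that overlap several genes were not given in the sources used here. A gene was tested where 3 of the 12 libraries or more exceeded 1 CPM, which left 13236 of 60671. All libraries entered a single fit with 4 groups in edgeR 4.0.16 under R 4.3.3, with an effective library size of the ERCC total times the TMM factor of the ERCC transcripts. Two-sided likelihood ratio tests were adjusted by the Benjamini-Hochberg method over all tested genes, and genes with an adjusted p under 0.05 were called. The quasi-likelihood test gave the same calls for the members in the 4 comparisons.

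The alternatives to this fit were the quasi-likelihood test, DESeq2 1.42.0 on the ERCC scale, scaling to the genes by TMM or by DESeq2's size factors, plain ERCC totals, other filters and fits to the 6 libraries compared. Further fits left out 1 library or the highest-numbered libraries, or summed the 2 lowest-numbered ones of a group. Exons and positions came from GENCODE on GRCh38 and promoters from RefSeq on GRCh38.p14. Levels per kilobase used the union of annotated exons. Intervals of pooled counts cover counting error only. The members and gene lists were chosen with earlier results of these data known. Named beside the 10 members and LEO1 are the 3 genes nearest in pattern to SULF1 and to HPSE2 and, of each list, the 2 tested genes with the largest change in each serum comparison, and, chosen after their values were seen, the list genes called between the genotypes on the ERCC scale. Results of some of these genes are not reported here. Nothing states that the libraries of a group came from separate cultures, so p-values measure the spread between these libraries, which may be technical.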

Additional observations from a re-analysis of the deposited data

Results flagged for a closer look

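The difference between the genotypes in the log2 response to 0.1% serum was 2.55 for SULF1 and -3.13 for HPSE2. This same difference led to their choice, so neither value is a test. SULF1 was lower in 0.1% serum in both genotypes, by less in ΔLEO1, and HPSE2 was higher in WT_01 than in any other group. Library 12 had the highest SULF1 value of its group, and without it the SULF1 difference was 1.56. Whether the property by which the highest-numbered libraries stand apart plays a part in it was not tested.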

How the results depend on the processing

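In WT the count of 4 called members between serum levels stayed within 1.5 times under every alternative run. In ΔLEO1 the 4 calls between serum levels became 2 with TMM on the genes, with DESeq2 size factors on the genes, with no filter, with the 6 libraries alone and with the 2 lowest-numbered libraries summed, and ran from 2 to 5 with 1 library left out. For ΔLEO1 against WT in 10% serum the 4 calls became 2 with the summed libraries and ran from 2 to 4 with 1 library left out, the 2 being without library 6. In 0.1% serum the 2 calls became 5 with either scaling on the genes and without the highest-numbered libraries, 0 with the summed libraries, and ran from 0 (without library 8) to 4 (without library 12). Shares of all genes called are given only for the likelihood ratio test on the ERCC scale and for TMM on the genes. The other counts here stand without such a share and are no result about the members. The SULF1 interaction moved to 1.67 without the highest-numbered libraries and ran from 1.56 to 2.95 with 1 library left out. The HPSE2 interaction stayed within its SE under every alternative run.

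Changes of sign were limited to differences that were not called or not tested. With TMM and with DESeq2 size factors on the genes, HAS2 against serum was 0.79 and 0.80 in WT and 1.19 and 1.19 in ΔLEO1, HYAL2 against serum in WT was 0.10 and 0.10, and HPSE2 for ΔLEO1 against WT in 10% serum was -0.27 and -0.26. The HPSE2 value was -0.31 and the HAS3 value for ΔLEO1 against WT in 0.1% serum was -0.22 without the highest-numbered libraries, and HAS2 against serum in ΔLEO1 was 0.13 with the summed libraries. With 1 library left out, HAS2 against serum ran from -0.59 to 0.13 in WT and from -0.72 to 0.22 in ΔLEO1. For ΔLEO1 against WT, HPSE2 in 10% serum ran from -0.17 to 0.22, HYAL2 from -0.24 to 0.10, and HAS3 in 0.1% serum from -0.38 to 1.07. Changes against serum are larger or smaller by about the median of all genes according to the scale, and the cause of the other moves was not tested. The labels give no library of one group the number of a library in another, so no fit paired by label was run. A term that sets the highest-numbered library of each group apart was not fitted. Depth limits HAS1, HYAL1 and the Leo1_10 level of SULF2.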
